A study of Mus musculus with 36 samples.

Results

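The wild-type (WT) kidneys of the Pkd1 line were compared between postnatal day 3 (P3) and postnatal day 1 (P1) by small RNA sequencing of whole kidney. These 6 libraries, 3 per age, were chosen from the 36 in the series by their labels for line, genotype and age. WT here means Pkd1 f/f mice on a C57BL/6 background without the HoxB7-Cre transgene, so both ages carried the floxed Pkd1 allele and no recombinase. The other groups used were WT kidneys of the same line at P7, Pkd1 f/f:HoxB7-Cre kidneys (KO) at P1 and P3, and WT kidneys of the Pkd2 line (Pkd2 f/f without Cre) at P1 and P3, each with 3 libraries. The Cre of the KO groups is driven by the HoxB7 promoter, in ureteric bud and collecting duct, so most cells of a KO kidney keep the floxed gene unrecombined. The labels give neither sex nor batch, and they do not state whether the 3 libraries of a group came from separate animals, so p-values measure the spread between these libraries.

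The 6 libraries held 13022619 to 27255128 reads assigned to mature microRNAs, with 913 to 1163 miRNAs detected in each. Of 1915 mature miRNAs in the table, 706 had 10 or more counts in at least 3 of the 18 libraries of the Pkd1 line and were tested. Levels are given as CPM, counts scaled to the same library size, after scaling by trimmed mean of M-values (TMM), a method that sets each library so that most miRNAs do not differ. The kidney markers fixed for this tissue were present in all 6 libraries. The epithelial miR-30a-5p ranged from 30523 to 47096 CPM, miR-192-5p from 4295 to 9192 CPM and the tubule miRNA miR-204-5p from 312 to 561 CPM.

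MicroRNAs are short RNAs cut from a hairpin precursor, of which either arm (5p or 3p) can be loaded into an Argonaute protein. Bases 2 to 8 of the mature miRNA, the seed, pair with sites in messenger RNAs and lower their stability or translation, so that miRNAs with 1 seed share many targets. In the mouse, nephrons are still being formed during the first days after birth, and tubules then mature and change their gene expression. In bulk samples such as these, fewer cells of a type and less RNA per cell cannot be told apart.

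The sequences that the comparison turned on are given 5′ to 3′ with the seed in capitals, from RefSeq on GRCm38.p6. The first 4 carry the same seed and belong to the miR-15/16 family, all of whose printed members were higher at P3.
miR-497a-5p: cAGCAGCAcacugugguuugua
miR-195a-5p: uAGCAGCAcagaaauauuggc
miR-15a-5p: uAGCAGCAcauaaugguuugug
miR-16-5p: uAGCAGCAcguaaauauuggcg
The next set holds other miRNAs higher at P3, beside which the partner arms miR-101a-3p and miR-30c-5p are shown because they were not called.
miR-101a-5p: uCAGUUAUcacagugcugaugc
miR-101a-3p: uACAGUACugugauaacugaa
miR-30c-1-3p: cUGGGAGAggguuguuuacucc
miR-30c-5p: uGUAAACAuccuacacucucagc
miR-802-5p: uCAGUAACaaagauucauccuu
miR-194-5p: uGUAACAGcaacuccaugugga
miR-22-3p: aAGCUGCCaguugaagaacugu
miR-29c-3p: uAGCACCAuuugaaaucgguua
The third set was lower at P3, except miR-378d, which is shown because its sequence is close to that of miR-378b while its level was not called different.
miR-378b: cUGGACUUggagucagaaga
miR-378d: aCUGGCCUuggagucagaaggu
miR-182-5p: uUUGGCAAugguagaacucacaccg
miR-148a-3p: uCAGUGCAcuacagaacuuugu
miR-483-5p: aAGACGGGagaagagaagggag
miR-495-3p: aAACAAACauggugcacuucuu
miR-381-3p: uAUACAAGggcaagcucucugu
The last 4 share the let-7 seed, of which all but let-7g-5p were called lower.
miR-98-5p: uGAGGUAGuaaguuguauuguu
let-7f-5p: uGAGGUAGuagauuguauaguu
let-7a-5p: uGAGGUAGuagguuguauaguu
let-7g-5p: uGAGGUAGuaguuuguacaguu

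Their hairpins are placed on GRCm38 as follows. The miR-497a hairpin (chr11:70234717-70234800, plus strand) and the miR-195a hairpin (chr11:70235042-70235135, plus strand) lie next to each other, with no other annotated gene at either. The miR-101a hairpin (chr4:101346945-101347027, minus strand) is in an exon of a long noncoding RNA, E130102H24Rik. The miR-30c-1 hairpin (chr4:120769534-120769622, minus strand) is in an intron of Nfyc. The miR-802 hairpin (chr16:93369720-93369816, plus strand) overlaps no other gene. miR-194-5p comes from 2 hairpins, on chr1:185313319-185313385 and chr19:6264643-6264728, both on the plus strand, so its reads cannot be assigned to either. The miR-378b hairpin (chr11:88352773-88352864, plus strand) is in an intron of Msi2 on the opposite strand. The miR-182 hairpin (chr6:30165918-30165992, minus strand) and the miR-148a hairpin (chr6:51269812-51269910, minus strand) overlap no other gene. The miR-483 hairpin (chr7:142654924-142654996, minus strand) is in an intron of Igf2, and the miR-98 hairpin (chrX:151913214-151913321, plus strand) is in an intron of Huwe1.

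Both ages held a library that stood apart from the others of its group. P1 WT replicate 1 held more than 3 times the mean of the other P1 WT libraries for 102 of the 706 miRNAs, against 4 for replicate 2 and 14 for replicate 3. Among them were the miRNAs of striated muscle, whose list of 7 summed to 1349, 45.1 and 15.9 CPM in the 3 P1 libraries and to 42.7, 16.98 and 16.2 CPM in the 3 P3 libraries. P3 WT replicate 3 had 37.3% of its reads in miR-10a-5p and miR-10b-5p, against 57.4 and 63.8% in the other P3 libraries. Results are therefore given with and without P1 WT replicate 1, and the number of calls without each P3 WT library is given below.

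Between P1 and P3, 133 of 706 miRNAs (18.8%) differed at an adjusted p under 0.05 in edgeR's quasi-likelihood F-test. Of these, 58 (8.22%) were higher at P3 and 75 (10.6%) were lower, while 223 (31.6%) had an unadjusted p under 0.05. The rises were smaller than the falls, with log2 fold changes of 0.47 to 2.98 (median 0.96) against falls of 0.45 to 10.6 on the log2 scale (median −2.08). The 10.6 is the fitted value of miR-202-5p, which was at 0 in all 3 P3 libraries. Its levels give only a bound, of at least 58.4-fold. The P3 libraries did not overlap the P1 libraries for all 58 rises and for 60 of the 75 falls. Over all tested miRNAs the ages did not overlap for 209 (29.6%), 110 with P3 higher (15.6%) and 99 with P3 lower (14%). P1 WT replicate 1 exceeded 3 times the mean of the other P1 WT libraries for 40 of the 75 falls and for none of the 58 rises. Without it, 59 of 698 miRNAs (8.45%) were called, 37 (5.3%) higher and 22 (3.15%) lower, and 33 of the 58 rises and 19 of the 75 falls were called again. The count was lower still without P3 WT replicate 2, at 35 (26 higher, 9 lower), and was 53 (37 and 16) without P3 WT replicate 3 and 69 (42 and 27) without P3 WT replicate 1. In all 6 fits that left out 1 of the 6 libraries, 21 rises and 8 falls stayed called, and the descriptions below lead with those. These fits also held the KO and P7 libraries of the line, which share in the estimate of spread. With the 6 compared libraries alone 10 miRNAs were called, 5 higher and 5 lower, and 20 of the 29 calls that stood in all 6 fits were lost. The 10 were miR-497a-5p, miR-201-5p, miR-101a-5p, miR-339-3p and miR-30c-1-3p, all higher, and miR-3970, miR-295-3p, miR-378b and the copies miR-486a-5p and miR-486b-5p, all lower. Scaling by library totals instead of TMM left 8 calls, 6 higher and 2 lower, and moved the median log2 fold change of all tested miRNAs from 0.03 to 0.60. The 8 were miR-497a-5p, miR-101a-5p, miR-150-5p, miR-802-5p, miR-30c-1-3p and miR-3057-5p, all higher, and miR-495-3p and miR-133b-3p, both lower.

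**Figure D1:**
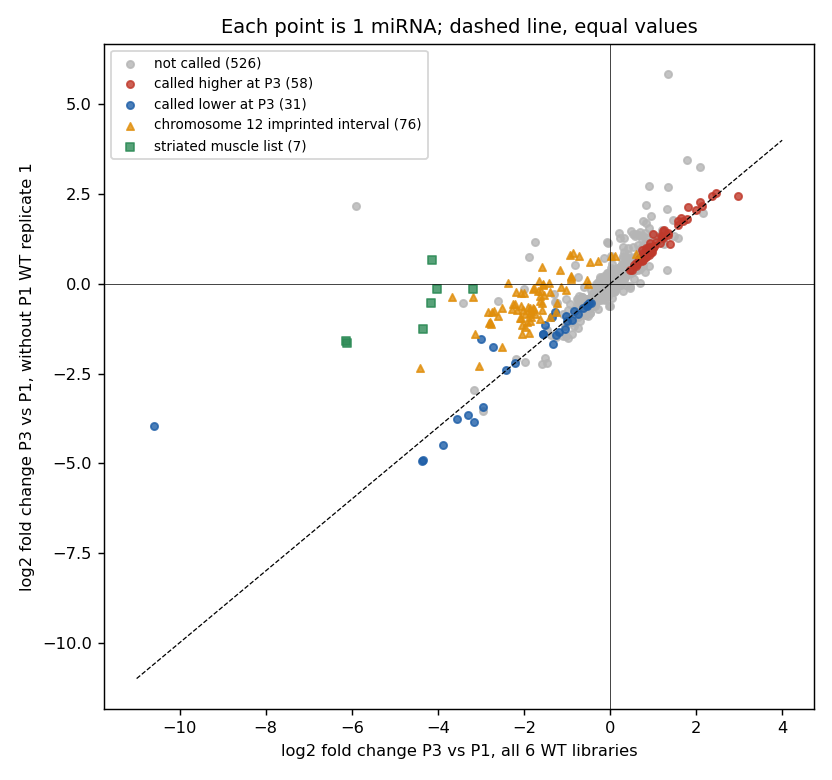
Log2 fold change of P3 over P1 in the WT kidneys of the Pkd1 line, from all 6 libraries (horizontal axis) and without P1 WT replicate 1 (vertical axis), for 698 miRNAs. Points show miRNAs called higher, miRNAs called lower, members of the chromosome 12 imprinted interval, striated muscle miRNAs and miRNAs not called. The interval (median −1.83 and −0.56) and muscle miRNAs (median −4.17 and −0.52) lie above the diagonal, with smaller falls without that library.

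The miR-15/16 family, which restrains the cell cycle by lowering cyclins and their kinases, held the miRNA with the smallest p. Of 11 tested arms, 4 were called higher and none lower, with a median log2 fold change of 0.60 against 0.03 over all tested miRNAs. Over all tested miRNAs 8.22% were called higher. Without P1 WT replicate 1, 2 of the 11 arms were called higher, against 5.3% of all tested miRNAs. miR-497a-5p was at 40.1, 39.7 and 29.8 CPM in the P1 libraries and 166, 192 and 209 CPM in the P3 libraries. The P3 libraries all lay far above the P1 range, and miR-497a-5p rose (log2 fold change 2.37, SE 0.22, adjusted p = 1.07e-05). The rise was of like size without P1 WT replicate 1 (log2 fold change 2.45). Its neighbour miR-195a-5p was at 85.7, 87.7 and 96.4 CPM and then 144, 143 and 123 CPM, a smaller rise (log2 fold change 0.60, SE 0.16, adjusted p = 0.0225). miR-15a-5p rose by a like amount (log2 fold change 0.71, SE 0.17, adjusted p = 0.0134), as did miR-16-5p (log2 fold change 0.56, SE 0.17, adjusted p = 0.0326), which comes from 2 hairpins. The call of miR-497a-5p stood whichever library was left out, and the other 3 did not. The call of miR-195a-5p was lost without P1 WT replicate 1 (adjusted p = 0.0743), P3 WT replicate 1 (adjusted p = 0.0611) and P3 WT replicate 2 (adjusted p = 0.0699). That of miR-15a-5p was lost without P3 WT replicate 2 (adjusted p = 0.0529), and that of miR-16-5p without any 1 library other than P1 WT replicate 2 and P3 WT replicate 1 (adjusted p from 0.0892 to 0.116). The partner arm miR-497a-3p, a log2 fold change of 2.08, did not pass the test (adjusted p = 0.0693). Of 6 tested miRNAs with the seed of miR-497a-5p, 4 were called higher and none lower. Not called were miR-15b-5p, with a log2 fold change of 0.60 (adjusted p = 0.0767), and miR-322-5p, counted in the list of miR-322 and miR-503.

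The tubule list of 12 miRNAs held 3 that were called higher and none called lower (median log2 fold change 0.33), where 8.22% of all tested miRNAs were called higher. miR-802-5p was at 14.4, 13.6 and 14.5 CPM at P1 and 27.3, 69.4 and 50.6 CPM at P3. The P1 libraries lay close together and the P3 libraries spread more widely without meeting them (log2 fold change 1.79, SE 0.31, adjusted p = 0.00272). The other arm of the hairpin, miR-802-3p, rose likewise (log2 fold change 1.58, SE 0.37, adjusted p = 0.0132). miR-194-5p, made together with miR-192 in kidney, gut and liver epithelia, was at 109, 106 and 112 CPM and then 176, 326 and 334 CPM (log2 fold change 1.35, SE 0.28, adjusted p = 0.00789). These 3 calls stood whichever of the 6 libraries was left out and were lost with the compared libraries alone (adjusted p = 0.0905, 0.101 and 0.0905). With library totals miR-802-3p (adjusted p = 0.075) and miR-194-5p (adjusted p = 0.075) were lost. Other tubule miRNAs did not pass. miR-192-5p, encoded beside miR-194, had a log2 fold change of 0.31 (adjusted p = 0.57). For miR-204-5p, which is highest in epithelia of kidney and eye, it was 0.31 (adjusted p = 0.382).

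Of 11 tested arms of the miR-30 family, which is needed for nephron formation and for podocytes, 4 were called higher, against 8.22% of all tested miRNAs, and none lower (median log2 fold change 0.50). Without P1 WT replicate 1, 3 were called higher and 1 lower, miR-30c-2-3p, whose log2 fold change was −0.56 with all 6 libraries (adjusted p = 0.0995) and −0.78 without that library (adjusted p = 0.0372). The largest of these was miR-30c-1-3p, the less abundant arm of its hairpin, at 40.99, 32.1 and 27.4 CPM at P1 and 84.3, 127 and 106 CPM at P3 (log2 fold change 1.66, SE 0.27, adjusted p = 0.00157). miR-30d-3p rose (log2 fold change 1.06, SE 0.21, adjusted p = 0.00657), as did miR-30b-5p (log2 fold change 0.73, SE 0.16, adjusted p = 0.0101). All 3 calls stood whichever library was left out, while that of miR-30b-3p (log2 fold change 0.76, SE 0.24, adjusted p = 0.0406) was lost without any 1 of the 6 libraries (adjusted p from 0.0524 to 0.12). The miR-30 arms among the miRNAs with most reads gave no call. miR-30c-5p had a log2 fold change of 0.71 (adjusted p = 0.0541), miR-30e-5p of 0.41 (adjusted p = 0.32) and miR-30a-5p of −0.23 (adjusted p = 0.484).

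Arms of 1 hairpin did not always move together. miR-101a-5p was at 2.17, 1.91 and 1.98 CPM at P1 and 7.05, 7.42 and 9.78 CPM at P3, with no P3 library near the P1 range (log2 fold change 1.995, SE 0.25, adjusted p = 0.000217). Its partner miR-101a-3p, the abundant arm and a repressor of the chromatin enzyme gene Ezh2, was at 750.5, 379 and 743 CPM and then 682, 672 and 927 CPM, and was not called (log2 fold change 0.28, SE 0.25, adjusted p = 0.476). In the same way miR-143-5p was at 4.37, 3.18 and 4.27 CPM at P1 and 9.91, 9.08 and 8.62 CPM at P3 (log2 fold change 1.22, SE 0.18, adjusted p = 0.000925). Its abundant partner miR-143-3p, the main smooth muscle miRNA, was not called (log2 fold change −0.22, SE 0.30, adjusted p = 0.672). The difference between the arms was not tested. Of the 58 rises, 18 were the less abundant arm of their hairpin and 31 the more abundant arm. The other 9 had no partner arm matched by name among all 1915 mature miRNAs. Of the 75 falls these were 18, 46 and 11, and of all 706 they were 221, 363 and 122. Names without an arm ending, or with a hairpin number before it, can lack such a match, so these splits are approximate.

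Further rises that stood in all 6 fits came from several sources. miR-22-3p, abundant in heart and kidney, was at 6870.3, 5835 and 6118 CPM at P1 and 10128, 9370.1 and 14334 CPM at P3 (log2 fold change 0.85, SE 0.20, adjusted p = 0.0132), and was the only one of the 10 miRNAs with most reads to be called. miR-29c-3p, which represses collagen messages, was at 10.2, 7.17 and 11.5 CPM and then 17.5, 18.1 and 20.7 CPM (log2 fold change 0.96, SE 0.22, adjusted p = 0.0132). It was the single call among 6 tested arms of the miR-29 family. miR-150-5p, a miRNA of mature lymphocytes that represses Myb, was at 9.58, 6.90 and 10.97 CPM and then 19.2, 77.2 and 25.7 CPM (log2 fold change 2.15, SE 0.45, adjusted p = 0.00789). P3 WT replicate 2 was the highest, and without it the log2 fold change of miR-150-5p was 1.30. Its call was lost with the compared libraries alone (adjusted p = 0.104). The other 8 tested arms of the leukocyte list gave no call, among them miR-142a-3p at a log2 fold change of 0.29 (adjusted p = 0.678). The 9 leukocyte arms summed to 217, 193 and 242 CPM in the P1 libraries and 237, 305 and 243 CPM in the P3 libraries. miR-339-3p was at 10.5, 9.62 and 9.05 CPM and then 24.4, 34.3 and 36.2 CPM (log2 fold change 1.70, SE 0.24, adjusted p = 0.000716). Another 6 rises that stood in all 6 fits were chosen after their values were seen, with log2 fold changes of 0.996 for miR-455-3p, 0.98 and 0.90 for both arms of miR-872, 0.90 for miR-1249-3p, 0.86 for miR-674-5p and 0.83 for miR-874-3p.

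Several large rises had few reads or depended on single libraries. miR-201-5p was at 0.143, 0.0907 and 0.128 CPM and then 0.644, 0.437 and 0.581 CPM (log2 fold change 2.10, SE 0.38, adjusted p = 0.00403), and this call stood in all 6 fits. The hairpin beside it on the X chromosome gives miR-547-3p, at 0.0858, 0.181 and 0 CPM and then 0.420, 0.393 and 0.581 CPM (log2 fold change 2.46, SE 0.67, adjusted p = 0.0225). That call was lost without any 1 library other than P1 WT replicate 2 and P3 WT replicate 1 (adjusted p from 0.0514 to 0.0911). miR-33-5p, encoded in an intron of Srebf2 and a repressor of cholesterol export, had a log2 fold change of 1.35 (adjusted p = 0.0415). Its call was lost in 5 of the 6 fits, without any 1 library other than P1 WT replicate 3 (adjusted p from 0.0638 to 0.137). The calls of miR-5099, miR-351-3p, miR-3057-5p and miR-1251-5p were lost with fewer libraries left out. miR-5099 (log2 fold change 1.81, adjusted p = 0.0146) was lost without P3 WT replicate 3 (adjusted p = 0.0678), and miR-351-3p (log2 fold change 1.58, adjusted p = 0.0132) without P3 WT replicate 2 (adjusted p = 0.0577). miR-3057-5p (log2 fold change 1.40, adjusted p = 0.0167) was lost without P1 WT replicate 1 (adjusted p = 0.0664) and P3 WT replicate 2 (adjusted p = 0.0699). miR-1251-5p (log2 fold change 1.26, adjusted p = 0.0351) was lost without any 1 library other than P1 WT replicate 1 and P3 WT replicate 2 (adjusted p from 0.0729 to 0.13).

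Smooth muscle and vessel lists held few members. Of 4 smooth muscle arms, 2 were called higher, miR-143-5p and miR-145a-3p (log2 fold change 0.98, SE 0.30, adjusted p = 0.0349), and none lower (median log2 fold change 1.10), against 8.22% of all tested miRNAs called higher. The call of miR-145a-3p was lost without any 1 library other than P1 WT replicate 3 (adjusted p from 0.06 to 0.121). The abundant arm miR-143-3p had a log2 fold change of −0.22 and was not called. The 4 arms summed to 23471, 23249 and 30993 CPM at P1 and 22066, 18232 and 28654 CPM at P3, so the ages overlapped. The endothelial miR-126a-3p, encoded in Egfl7, had a log2 fold change of 0.47 (adjusted p = 0.0356), and its call was lost without any 1 library other than P1 WT replicate 3 (adjusted p from 0.0597 to 0.155). Of 6 mesenchymal arms of miR-199 and miR-214 only miR-214-5p was called higher (log2 fold change 0.74, SE 0.25, adjusted p = 0.048), and that call was lost without any 1 library other than P1 WT replicate 1 (adjusted p from 0.0669 to 0.147). miR-199a-5p had a log2 fold change of 0.41 (adjusted p = 0.172).

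**Figure D2:**
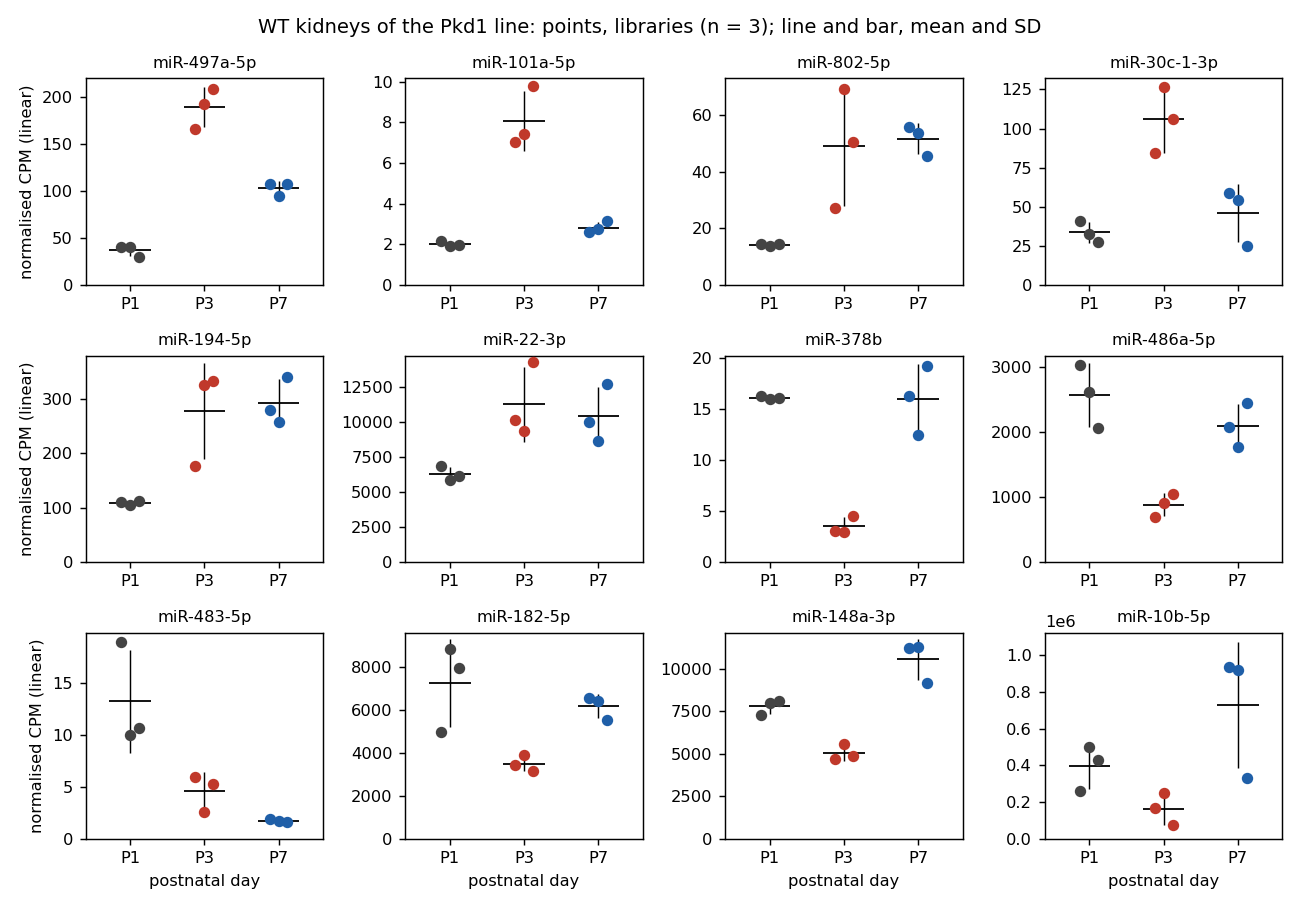
CPM after TMM scaling of 12 miRNAs in WT kidneys of the Pkd1 line at P1, P3 and P7, 1 point per library (3 per age) with the mean and SD, each panel on a linear axis of its own. miR-497a-5p, miR-101a-5p and miR-378b separate P3 from P1 without overlap, and the P7 libraries of miR-101a-5p and miR-378b lie back near P1.

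The falls that stood in all 6 fits were led by miR-378b. It was at 16.3, 15.97 and 16.1 CPM in the P1 libraries and 2.97, 2.88 and 4.51 CPM in the P3 libraries (log2 fold change −2.22, SE 0.28, adjusted p = 0.000217). The P1 libraries were nearly equal, and every P3 library was far below them. The other 4 tested arms of the miR-378 list were not called, among them miR-378d (log2 fold change −0.03, SE 0.17, adjusted p = 0.926) and miR-378a-3p (log2 fold change −0.18, SE 0.15, adjusted p = 0.444). Since these sequences are near copies, reads could be divided among them by the counting, and the level of miR-378b is uncertain to that extent.

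The erythroid miR-486 was lower at P3. miR-486a-5p, whose copies a and b are read from the same sequence, was at 3045, 2615 and 2066 CPM and then 693, 908 and 1039 CPM (log2 fold change −1.55, SE 0.24, adjusted p = 0.000925). The values of miR-486b-5p were almost the same, and the copies cannot be told apart. The other red cell miRNAs were not called. miR-451a was at 672, 801 and 715 CPM and then 387, 275 and 189.8 CPM (log2 fold change −1.36, SE 0.55, adjusted p = 0.0984), and miR-144-3p had a log2 fold change of 1.16 (adjusted p = 0.12). The 7 erythroid arms summed to 6789.5, 6055 and 4881 CPM at P1 and 1797, 2122 and 2311 CPM at P3, without overlap after TMM. Both miR-486 copies count in these sums and make up most of each, so the sums largely repeat the miR-486 fall. In unscaled counts the ages overlapped. P3 WT replicate 3 held 123377 of 27126851 reads, a larger share than the 76537 of 17401902 in P1 WT replicate 3. The median log2 fold change of the 7 arms was −0.30 with TMM and 0.31 with scaling by library totals.

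The 2 arms of miR-483, which is encoded within the growth factor gene Igf2, were both called lower. miR-483-5p was at 18.98, 9.98 and 10.7 CPM and then 5.99, 2.58 and 5.32 CPM (log2 fold change −1.51, SE 0.29, adjusted p = 0.00619), in all 6 fits. miR-483-3p was at 51.7, 26.4 and 20.98 CPM and then 15.5, 8.91 and 16.6 CPM (log2 fold change −1.27, SE 0.31, adjusted p = 0.0134), and this call was lost without P1 WT replicate 1 (adjusted p = 0.0656) and P3 WT replicate 2 (adjusted p = 0.06). Other fetal growth miRNAs of the same list did not pass, among them miR-675-5p from H19 (log2 fold change −1.46, SE 0.54, adjusted p = 0.0693) and miR-335-3p from Mest (log2 fold change −0.33, SE 0.16, adjusted p = 0.166).

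A cluster known from sensory organs gave another fall. Its member miR-182-5p, transcribed with miR-183 and miR-96, was at 4971, 8869 and 7961 CPM and then 3459.5, 3899.8 and 3165 CPM (log2 fold change −1.05, SE 0.22, adjusted p = 0.00789). P1 WT replicate 1 was the lowest of its group and still above every P3 library. The fall of miR-182-5p was steeper without that library (log2 fold change −1.26). Its cluster partner miR-183-5p had a log2 fold change of −0.36 and was not called (adjusted p = 0.229). miR-148a-3p, an abundant miRNA that represses Dnmt1, was at 7296, 7976 and 8116 CPM and then 4704, 5559 and 4850.1 CPM (log2 fold change −0.63, SE 0.13, adjusted p = 0.00847). With scaling by library totals its log2 fold change was −0.05. miR-3970, at 0.858, 1.54 and 1.34 CPM and then 0.112, 0 and 0.150 CPM, fell from a few counts to nearly none (log2 fold change −3.55, SE 0.66, adjusted p = 0.0044), and without P3 WT replicate 3 the log2 fold change was −4.14.

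Within the let-7 family, which accumulates as tissues differentiate once Lin28 no longer blocks its maturation, the calls went in both directions. Over all tested miRNAs 8.22% were called higher and 10.6% lower. Of 9 tested miRNAs with the let-7 seed, 3 were called lower and none higher (median log2 fold change −0.37 with TMM and 0.24 with scaling by library totals), while 1 of the remaining arms in the list of 21, let-7b-3p, was called higher (log2 fold change 0.85, adjusted p = 0.0182), a call lost without P1 WT replicate 3 (adjusted p = 0.0516), P3 WT replicate 2 (adjusted p = 0.0613) and P3 WT replicate 3 (adjusted p = 0.0644). miR-98-5p was at 627, 545 and 1376 CPM and then 438, 263 and 372 CPM (log2 fold change −1.25, SE 0.29, adjusted p = 0.0132). Its call was lost without P3 WT replicate 2 (adjusted p = 0.0577). let-7f-5p (log2 fold change −0.53, SE 0.15, adjusted p = 0.03) and let-7a-5p (log2 fold change −0.49, SE 0.16, adjusted p = 0.0431) were lower by less, and both turned to log2 fold changes above 0 with scaling by library totals (0.10 and 0.15). The call of let-7a-5p was lost without any 1 of the 6 libraries (adjusted p from 0.0537 to 0.177), and that of let-7f-5p without any 1 library other than P1 WT replicate 2 and P3 WT replicate 3 (adjusted p from 0.0512 to 0.112). let-7g-5p showed a log2 fold change of 0.00 (SE 0.16).

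The largest block of falls came from a single stretch of chromosome 12, chr12:109452823-110281097 on GRCm38, the imprinted Dlk1-Dio3 domain, whose 58 annotated hairpins are expressed from the maternal chromosome in fetal tissues. Of 78 tested miRNAs from it, 38 (48.7%) were called lower and none higher, against 37 of the other 628. Their median log2 fold change was −1.83, and 75 of the 78 were below 0. P1 WT replicate 1 was the highest of the 6 libraries for 77 of the 78. The 78 summed to 33039, 6072 and 5387 CPM in the P1 libraries and to 4309, 4410.1 and 4166 CPM in the P3 libraries, so replicate 1 stood far above the other 5 libraries. Without it, 1 of 76 was called lower, the median log2 fold change was −0.56 and 58 were below 0.

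The 1 that stayed called was miR-495-3p, at 75.2, 8.80 and 5.48 CPM and then 1.54, 1.88 and 0.843 CPM (log2 fold change −4.41, SE 0.93, adjusted p = 0.0083). Replicate 1 was far above the other P1 libraries, and these were above every P3 library. Without replicate 1 the log2 fold change of miR-495-3p was −2.34 (adjusted p = 0.0349). miR-381-3p is typical of the others, at 2442, 263 and 206 CPM and then 126, 144 and 139.6 CPM (log2 fold change −2.83, SE 0.70, adjusted p = 0.0146), and without replicate 1 its log2 fold change was −0.78 (adjusted p = 0.136). The same loss of the call without replicate 1 held for miR-543-3p (log2 fold change −3.13 with all 6 libraries and −1.41 without it, adjusted p = 0.166), miR-154-3p (−3.04 with all 6 libraries and −2.28 without it, adjusted p = 0.0555), miR-431-3p (−2.80 with all 6 libraries and −1.08 without it, adjusted p = 0.22), miR-376b-3p (−2.79 with all 6 libraries and −1.07 without it, adjusted p = 0.183), miR-341-3p (−2.77 with all 6 libraries and −1.12 without it, adjusted p = 0.0561) and miR-673-3p (−2.74 with all 6 libraries and −0.78 without it, adjusted p = 0.292). These 6 calls were also lost without P3 WT replicate 2 (adjusted p from 0.0517 to 0.0755), 4 of them without P3 WT replicate 3 (0.0707 to 0.0729) and 3 without P3 WT replicate 1 (0.0501 to 0.0658). That of miR-381-3p was lost without any 1 library other than P1 WT replicate 2 and P1 WT replicate 3 (adjusted p from 0.0512 to 0.136).

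The miRNAs of striated muscle were highest in the same library. Of 7 tested, 6 were called lower, against 10.6% of all tested miRNAs, and none was called without P1 WT replicate 1. miR-133b-3p was at 167, 3.72 and 1.34 CPM and then 1.32, 0.611 and 0.524 CPM (log2 fold change −6.13, SE 1.41, adjusted p = 0.0132), and its call was lost without P1 WT replicate 1 (adjusted p = 0.177), P3 WT replicate 2 (adjusted p = 0.0529) and P3 WT replicate 3 (adjusted p = 0.0563). miR-499-5p, encoded in the myosin gene Myh7b, was at 10.3, 0.544 and 0.383 CPM and then 0.196, 0.175 and 0.187 CPM (log2 fold change −4.34, SE 1.07, adjusted p = 0.0146). Its adjusted p was 0.333 without replicate 1, and the call was also lost without each single P3 library. Of the endocrine list, miR-202-5p, a gonadal miRNA, was at 22.8, 0.0907 and 0.0638 CPM and at 0 in all 3 P3 libraries. Set against the highest floor of the P3 libraries (3 counts, or 0.131 CPM), miR-202-5p was at least 58.4-fold lower at P3. The mean of the other P1 libraries was 0.0773 CPM, under that floor, so no fold is given without replicate 1, and the adjusted p was then 0.62. miR-375-3p, the pancreatic islet miRNA, was at 283, 34.7 and 55.4 CPM and then 13.4, 12.5 and 20.8 CPM (log2 fold change −2.995, SE 0.97, adjusted p = 0.0415), with an adjusted p of 0.282 without replicate 1. The calls of miR-202-5p and miR-375-3p were also lost without each single P3 library (adjusted p from 0.0826 to 0.132). The median log2 fold change of the 6 endocrine arms was −2.83 with all 6 libraries and −0.54 without that library. Whether the imprinted, muscle and endocrine miRNAs of P1 WT replicate 1 have a common source was not tested.

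**Figure D3:**
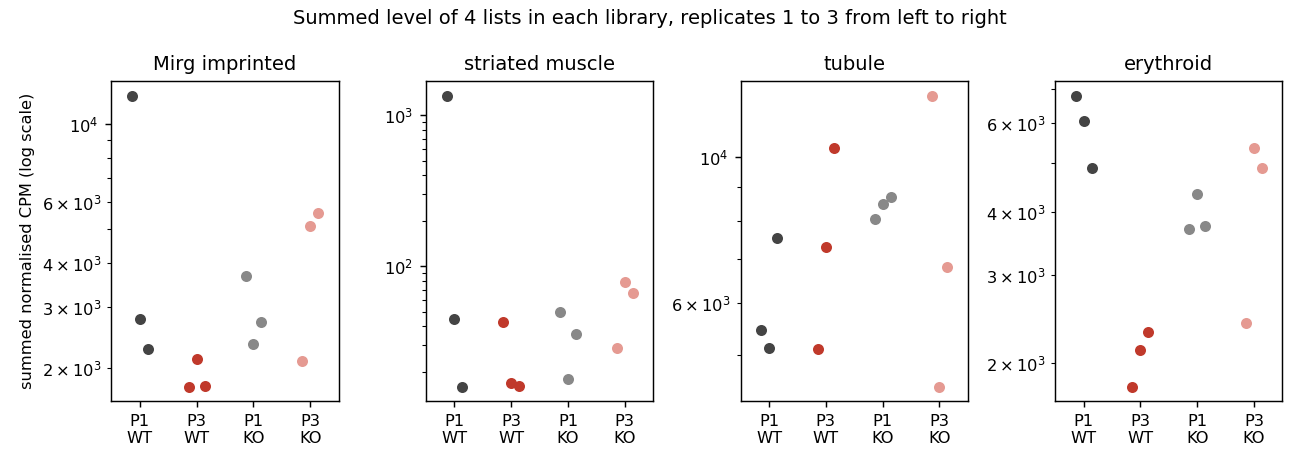
Summed CPM, on a log axis, of the Mirg imprinted, striated muscle, tubule and erythroid lists in each library of P1 and P3 WT and of P1 and P3 KO kidneys of the Pkd1 line. P1 WT replicate 1 stands above all other P1 WT libraries for the imprinted and muscle lists and not for the tubule list.

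Other falls rested on the opposite pattern. miR-3470a was at 0.886, 15.7 and 30.03 CPM in the P1 libraries and 0.840, 0.655 and 0.749 CPM in the P3 libraries (log2 fold change −4.36, SE 1.17, adjusted p = 0.0206), so that P1 WT replicate 1 lay near the P3 libraries while replicates 2 and 3 were high. miR-690 was at 1.31, 5.90 and 7.40 CPM and then 0.420, 0.917 and 0.543 CPM (log2 fold change −2.96, SE 0.97, adjusted p = 0.044). The call of miR-3470a was lost without any 1 library other than P1 WT replicate 1 and P1 WT replicate 2 (adjusted p from 0.054 to 0.0755), and that of miR-690 without any 1 library other than P1 WT replicate 1 (adjusted p from 0.0792 to 0.144). Both were called without P1 WT replicate 1.

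The following lists are given with their counts of calls. Of all tested miRNAs, 8.22% were called higher and 10.6% lower. The miR-200 family, which keeps epithelial cells from turning mesenchymal, had 2 arms called higher and none lower of 10, with a median log2 fold change of 0.40. The largest log2 fold change among all 58 rises, 2.98, was that of miR-429-5p, which had 1 count in each P1 library and 9, 17 and 19 in the P3 libraries, and was lost without P1 WT replicate 1 (adjusted p = 0.118) and P3 WT replicate 2 (adjusted p = 0.0669). miR-200b-3p was the other (log2 fold change 0.52, SE 0.15, adjusted p = 0.0313), a call lost without P1 WT replicate 1 (adjusted p = 0.155), P3 WT replicate 1 (adjusted p = 0.0676) and P3 WT replicate 2 (adjusted p = 0.0944). The list of miR-99, miR-100 and miR-125 had 2 of 11 called higher, among them miR-100-5p (log2 fold change 1.01, SE 0.26, adjusted p = 0.0184), lost without P3 WT replicate 1 (adjusted p = 0.0832) and P3 WT replicate 2 (adjusted p = 0.0511). The miR-17/92 list, which promotes proliferation in nephron progenitors, had 1 higher and 1 lower of 25 and a median log2 fold change of 0.10, close to that of all tested miRNAs. Its lower member, miR-18a-5p, had a log2 fold change of −1.02 (adjusted p = 0.0307), lost without any 1 library other than P1 WT replicate 2 and P3 WT replicate 1 (adjusted p from 0.0586 to 0.136). Of 2 injury arms of miR-21a, 2 hypoxia arms of miR-210, 8 arms of miR-34 and miR-449 and 10 arms of miR-181 none was called with all 6 libraries. Without P1 WT replicate 1, miR-34c-5p (log2 fold change 0.97, adjusted p = 0.0321) and miR-181d-3p (log2 fold change 1.55, adjusted p = 0.0345) were called higher. miR-210-3p, the hypoxia miRNA, had a log2 fold change of −0.71 (SE 0.34), and miR-21a-5p of 0.09 (SE 0.16). Of 11 arms of the miR-23/27/24 list 2 were called higher and 1 lower. miR-24-2-5p was called higher in all 6 fits (log2 fold change 1.23, SE 0.26, adjusted p = 0.00789), while the mature arm that its hairpins share, miR-24-3p, was called lower (log2 fold change −0.45, SE 0.14, adjusted p = 0.0415) and had a log2 fold change of 0.15 with scaling by library totals. The call of miR-24-3p was lost without any 1 library other than P1 WT replicate 1 (adjusted p from 0.0597 to 0.159). The list of miR-322 and miR-503 had 1 arm higher and 2 lower of 13, and that of miR-148 and miR-152 1 higher and 1 lower of 6. None of 4 arms of miR-221 and miR-222, 2 of the liver miR-122, 7 neural arms and 6 arms of squamous epithelium was called. The embryonic stem cell miRNAs of the list of miR-290 to miR-295 had 2 of 4 called lower on few counts, miR-292a-5p (log2 fold change −3.30, lost without any 1 library other than P1 WT replicate 1 (adjusted p from 0.0599 to 0.135)) and miR-295-3p (log2 fold change −2.41, lost without any 1 library other than P1 WT replicate 2 (adjusted p from 0.0657 to 0.118)).

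**Figure D4:**
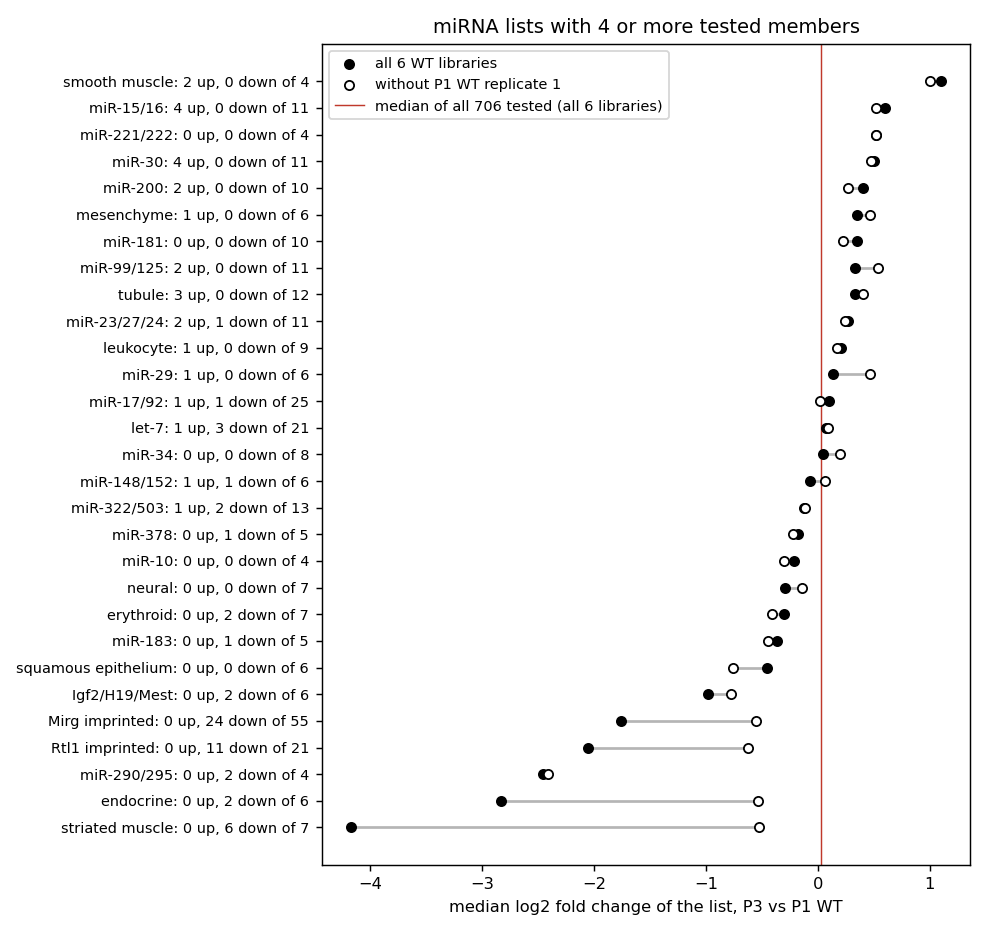
Median log2 fold change of P3 over P1 in WT kidneys of the Pkd1 line for each fixed list with at least 4 tested members, from all 6 libraries (filled points) and without P1 WT replicate 1 (open points). The imprinted and striated muscle lists lie far lower with all 6 libraries than without P1 WT replicate 1, and the miR-15/16 and miR-30 lists lie above the median of all tested miRNAs in both.

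More than any other miRNAs, the arms encoded in the Hox clusters filled the libraries. miR-10a-5p held 30.3% and miR-10b-5p 28.6% of all reads in the 6 libraries. Together they took 62.9, 75.1 and 69.9% of reads in the P1 libraries (69.3% ± 6.11, SD, n = 3) and 57.4, 63.8 and 37.3% in the P3 libraries (52.9% ± 13.8, SD, n = 3). The ages overlapped, and the difference of −16.5 percentage points did not pass an exact two-sided permutation test (p = 0.2, where 0.1 is the smallest possible). Without P3 WT replicate 3 the difference was −8.72 percentage points. Per miRNA, miR-10b-5p was at 258938, 498045 and 427479 CPM and then 170609, 250680.0 and 73423 CPM, without overlap but not called (log2 fold change −1.26, SE 0.70, adjusted p = 0.243). miR-10a-5p had a log2 fold change of −0.57 (adjusted p = 0.532). The next miRNAs by reads were miR-30a-5p (4.69% of reads), miR-181a-5p (3.31%), miR-143-3p (3.22%), miR-26a-5p (2.39%), miR-27b-3p (1.95%), miR-30e-5p (1.64%), miR-22-3p (1.35%) and miR-30c-5p (0.98%). Of these only miR-22-3p was called. miR-181a-5p had a log2 fold change of 0.56 (adjusted p = 0.0652), miR-26a-5p of −0.10 (adjusted p = 0.805) and miR-27b-3p of 0.32 (adjusted p = 0.37).

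The first base of the mature miRNA differed between the groups of calls as a description. Of the called-lower miRNAs with a RefSeq sequence, 61.2% began with U, against 36.7% of the called-higher and 39.6% of all tested miRNAs with a sequence. Outside the chromosome 12 interval, 69.0% of 29 called-lower miRNAs with a sequence began with U, against 39.4% of all miRNAs tested there. Median length was 22 bases in each set and median GC content was 50% for the rises, 50% for the falls and 47.8% for all.

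The WT kidneys at P7 give the level of these miRNAs at a later age. A comparison of P7 with P3 shares the P3 libraries with the comparison above, so its counts are not independent of those calls. Of the 58 rises, 30 had a P7 mean back past the midpoint between P1 and P3, as did 19 of the 75 falls. Between P3 and P7, after TMM, 20 of the rises and 14 of the falls were called in the opposite direction. In the same direction, 2 rises and 1 fall were called. The levels of single miRNAs are set side by side. miR-101a-5p was at 2.59, 2.74 and 3.12 CPM in the P7 libraries, which is between its P1 and P3 levels and closer to P1. miR-378b was at 16.3, 12.5 and 19.2 CPM at P7, on both sides of the P1 levels and all above P3. miR-497a-5p was at 108, 94.04 and 107 CPM at P7, between its P1 and P3 levels. Both tubule miRNAs named above overlapped their P3 levels at P7. miR-802-5p was at 55.95, 53.6 and 45.4 CPM and miR-194-5p at 281, 257 and 342 CPM at P7. The whole tubule list of 12 summed to 5454, 5132 and 7532 CPM at P1 and 5101, 7288 and 10306 CPM at P3. At P7 it summed to 15268, 13471 and 22176 CPM, above every earlier library after TMM. In unscaled counts, P7 replicates 1 and 2 held 129619 of 18022936 and 108152 of 16353014 reads. The P3 libraries held 182257 of 24385410, 166949 of 20326786 and 550283 of 27126851. The shares of P7 replicates 1 and 2 were below all P3 shares. P7 replicate 3 held 462074 of 21763104 reads, a larger share than any P3 library. In unscaled counts the P7 and P3 libraries therefore overlapped, and their separation depended on the scaling.

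KO kidneys of the same line gave the age change in other libraries, which share the filter, scaling and estimate of spread with the WT comparison. Between P1 and P3, 63 of 706 miRNAs (8.92%) were called in the KO kidneys, 36 (5.1%) higher and 27 (3.82%) lower. Of the 58 WT rises, 55 had the same sign in KO and 26 were called in the same direction. Of the 75 WT falls, 43 had the same sign and 9 were called in the same direction. Across all 706 miRNAs the rank correlation of the WT and KO age changes was 0.33. The share of all tested miRNAs with the same sign was not counted. miR-497a-5p was at 39.8, 52.3 and 42.8 CPM in P1 KO and 232, 121 and 161 CPM in P3 KO (log2 fold change 1.93, SE 0.22, adjusted p = 0.000131). miR-378b fell in KO as well (log2 fold change −1.998, SE 0.28, adjusted p = 0.000712). The test of the difference between the age changes called none of the 706 miRNAs in edgeR, against 102 at an unadjusted p under 0.05 (14.4%), and 35 in DESeq2. Leaving out P1 WT replicate 3 gave 26 calls and leaving out P3 KO replicate 1 gave 20. The lowest p values in edgeR were those of erythroid miRNAs. miR-144-5p had a log2 fold change of −0.30 in WT and 1.46 in KO, a KO minus WT difference of 1.76 (SE 0.38, adjusted p = 0.0799). miR-486a-5p fell by 1.55 on the log2 scale in WT, while its log2 fold change was −0.03 in KO, a KO minus WT difference of 1.52 (SE 0.33, adjusted p = 0.0799). In the imprinted interval the KO median log2 fold change was 0.25, with 27 of 78 below 0. The 78 summed to 11098, 6379.8 and 7352 CPM in the P1 KO libraries and 5081, 11322 and 13734 CPM in the P3 KO libraries, so the ages overlapped, with replicate 1 highest at P1 and lowest at P3.

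WT kidneys of the Pkd2 line gave a second set of libraries for the same ages, scaled in a fit of all 36 libraries with 775 miRNAs. There 1 miRNA (0.129%) was called between P1 and P3, miR-3084-5p, named after its values were seen (log2 fold change 2.32, adjusted p = 0.00483), and 69 (8.9%) had an unadjusted p under 0.05. Of the 58 Pkd1 WT rises, 50 had the same sign in Pkd2 WT, of the 75 falls 61 had, and none was called in the same direction. Across the 706 miRNAs the rank correlation of the age changes of the 2 lines was 0.53, with the overall share of the same sign not counted. The difference between the lines' age changes was called for 10 of 775 miRNAs (1.29%), 5 (0.645%) higher and 5 (0.645%) lower, and leaving out P1 WT replicate 1 of the Pkd1 line gave 15. On the scale of that fit, miR-101a-5p was at 2.89, 2.54 and 2.50 CPM at P1 and 8.95, 9.44 and 12.1 CPM at P3 in Pkd1 WT. In Pkd2 WT it was at 10.02, 9.76 and 10.4 CPM and 9.58, 10.7 and 8.58 CPM, already at P1 near the level of P3 in the Pkd1 line. The Pkd2 minus Pkd1 difference was −1.999 (SE 0.29, adjusted p = 0.00015). miR-497a-5p was at 119.7, 122 and 127 CPM and then 202, 206 and 201 CPM in Pkd2 WT (log2 fold change 0.72, adjusted p = 0.0743), with a difference from Pkd1 WT of −1.59 (SE 0.26, adjusted p = 0.000681). miR-378b was at 21.7, 21.3 and 20.3 CPM at P1 and 3.76, 3.67 and 5.57 CPM at P3 in Pkd1 WT, and at 4.62, 4.13 and 4.45 CPM and 2.85, 4.69 and 5.95 CPM in Pkd2 WT, a difference of 2.32 (SE 0.42, adjusted p = 0.00186). For miR-378b the P1 libraries of the lines did not overlap and the P3 libraries did. In the chromosome 12 interval 76 of 78 log2 fold changes were below 0 in Pkd2 WT (median −0.90), with none called. Their sums were 8387, 6812 and 16469.9 CPM at P1 and 5466, 6806 and 6838 CPM at P3, so the ages overlapped and replicate 3 stood far above the other P1 libraries.

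**Figure D5:**
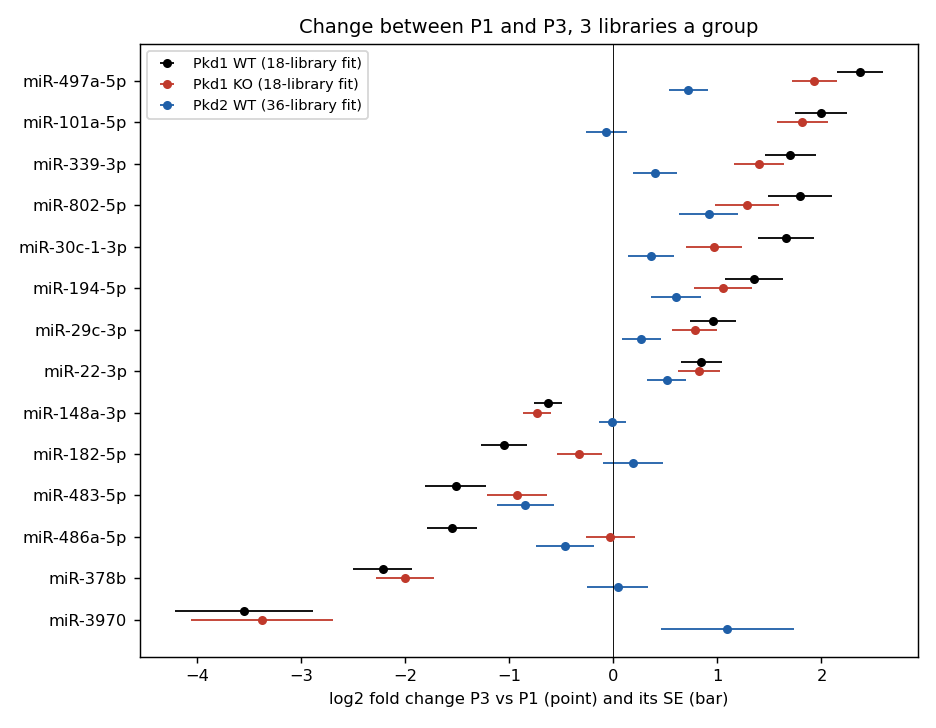
Log2 fold change of P3 over P1 with its SE for 14 miRNAs in Pkd1 WT and Pkd1 KO kidneys (fit of 18 libraries) and in Pkd2 WT kidneys (fit of 36 libraries). miR-497a-5p and miR-378b move the same way in Pkd1 WT and KO, while miR-101a-5p changes in Pkd1 WT and lies near 0 in Pkd2 WT.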

How the data were processed

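Small RNA of whole kidney was sequenced in 36 libraries of 12 groups, 3 per group. The authors trimmed adaptors, kept reads longer than 17 bases and deposited raw read counts per miRNA and precursor row, with miRDeep2 and miRBase named in the study's methods. The submitters' processing notes name mm10, CASAVA 1.8.2 and HTSeq. The table has 2061 rows for 1915 mature miRNAs, of which 83 lie on several rows, and the row with most reads was taken. miRNAs with 10 or more counts in at least 3 of the 18 Pkd1-line libraries (706), or of all 36 (775), were tested in edgeR 4.0.16 (R 4.3.3) with TMM scaling, 1 term per group, a quasi-likelihood F-test and Benjamini-Hochberg adjustment, and were called at an adjusted p under 0.05. The SE is the log2 fold change divided by the square root of F. CPM values are after TMM. The share of miR-10 reads was compared by an exact permutation test. Scripts were tested on simulated data. Since miR-10 takes most reads, a change in its share moves every other share of reads, and TMM and library totals treat this differently. Floors cover counting error only, while the SEs also hold the spread between libraries. Reads have no molecular identifiers. Sequences (588 of 706 matched) and hairpin positions came from RefSeq on GRCm38.p6. Overlapping genes and the bounds of the chromosome 12 interval came from the GENCODE annotation.

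Named miRNAs were the 15 largest rises and the 15 largest falls among called miRNAs with a mean of at least 10 counts over the 6 WT libraries and no overlap of the ages, the 10 with most reads, members of fixed lists, and up to 3 per interaction by lowest p. miRNAs named outside these are said to be chosen after their values were seen. The members and lists were chosen with earlier results of these data known. Alternatives were DESeq2 1.42.0, other scalings and filters, the compared libraries alone, summed rows, a miR-10 share covariate, a replicate block and leaving out each library.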

Additional observations from a re-analysis of the deposited data

Results flagged for a closer look

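The change between P1 and P3 differed between the WT kidneys of the Pkd2 line and of the Pkd1 line for 10 of 775 miRNAs (1.29%) in edgeR's test of the difference itself, against 95 (12.3%) at an unadjusted p under 0.05. The values below are the log2 change in Pkd2 WT minus that in Pkd1 WT, with 3 libraries per group. Those below 0 were −1.999 for miR-101a-5p, −1.59 for miR-497a-5p, −1.24 for miR-339-3p, −1.23 for miR-30c-1-3p and −0.89 for miR-143-5p, all called higher at P3 in Pkd1 WT. Those above 0 were 2.32 for miR-378b, 4.70 for miR-3970, 5.44 for miR-3470a, 4.84 for miR-3470b and 0.87 for miR-24-3p, all called lower at P3 in Pkd1 WT. For each of the 10 the flag is that the change in one line passed a test against the change in the other. On the scale of the fit of 36 libraries, miR-30c-1-3p was at 54.6, 42.9 and 34.6 CPM at P1 and 107, 161 and 131 CPM at P3 in Pkd1 WT, and at 61.7, 63.0 and 63.2 CPM and 92.7, 76.7 and 72.8 CPM in Pkd2 WT. miR-3970 was at 1.14, 2.06 and 1.69 CPM and 0.142, 0 and 0.185 CPM in Pkd1 WT, and at 0.107, 0.143 and 0.0670 CPM and 0.129, 0.191 and 0.329 CPM in Pkd2 WT. miR-3470a was at 1.18, 20.96 and 37.9 CPM and 1.07, 0.833 and 0.925 CPM in Pkd1 WT, and at 1.29, 0.931 and 0.402 CPM and 1.10, 2.61 and 1.62 CPM in Pkd2 WT. The differences of miR-101a-5p, miR-497a-5p, miR-378b and miR-3970 stayed called under every alternative that tested them, except scaling by library totals. A filter of 50 counts tested only 9 of the 10. With that scaling none of the 10 stayed called (adjusted p from 0.06 to 0.89).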

How the results depend on the processing

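With all 6 libraries and TMM, 133 miRNAs were called between P1 and P3. The count was 8 (6 higher, 2 lower) with scaling by library totals, 10 (5 and 5) with the compared libraries alone and 66 (40 and 26) with a replicate block, and 35 to 128 without 1 of the 6 libraries. It was 59 without P1 WT replicate 1, 35 without P3 WT replicate 2, 53 without P3 WT replicate 3 and 69 without P3 WT replicate 1. DESeq2, its size factors, TMM without miR-10, the filters, summed rows and a miR-10 covariate gave 105 to 175. The KO minus WT difference was called for 0 miRNAs, for 35 with DESeq2, for 6 with no filter and for 0 to 26 without 1 library. The Pkd2 minus Pkd1 difference was called for 10, for 20 with DESeq2, 1 with library totals, 6 with no filter, 4 with the compared libraries alone, 53 with the miR-10 covariate, 4 with the replicate block and 4 to 15 without 1 library. The difference in miR-10 share ranged from −22.0 to −8.72 percentage points without 1 library. It was −17.5 points with summed rows (exact permutation p = 0.1), and −16.5 points with the replicate block (p = 0.25), where the pairing leaves few permutations. The log2 fold change of miR-10a-5p turned to 0.28 with the miR-10 covariate, and the Pkd2 minus Pkd1 difference of miR-24-3p turned to −0.11 with library totals. The cause of these changes was not tested. Replicate numbers were not taken as pairs, since the correlations of same-numbered libraries were 0.137, 0.0964 and 0.214, and not all exceeded 0.1. Every library correlated best with its own number, which is a hint from the data and not from the design. Among miRNAs named in the main comparison, alternatives other than leaving out a library left 323 values on the same side of the threshold, with 62 weaker, 3 stronger and 1 reversed. Leaving out a library left 175 on the same side, with 64 weaker and 1 stronger. Depth limits miRNAs of few counts, such as miR-202-5p, miR-547-3p and miR-201-5p.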
